A study of Mus musculus with 10 samples.

Results

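Keratins are the intermediate filament proteins of epithelial cells, and this report covers every keratin gene in an RNA sequencing table of mouse colon tumors. The members were chosen by name alone, as all gene names made of Krt, a number and at most 1 letter, which gave 23 of the 16875 names in the table. Krt13, Krt17 and Krt19 carried the same value in all 10 tumors, and so did Krt4 and Krt6a, so that the 23 names gave 20 distinct entries. They were divided into 6 simple epithelial keratins (Krt7, Krt8, Krt18, Krt19, Krt20 and Krt23) and 14 entries of other keratins. The tumors had been induced in young adult C57BL/6 mice with the carcinogen azoxymethane (AOM) and repeated cycles of dextran sulfate sodium (DSS), which injures and inflames the colon. All 10 tumors carried the conditional Wls allele on both chromosomes (Wls flox/flox), and the labels name no Cre driver for the 5 control tumors, whereas the 5 Villin-Wls cKO tumors also carried Villin-Cre ERT2, a tamoxifen-inducible recombinase under the Villin promoter, which is active in intestinal epithelium. The titles of the control tumors read Wls WT, and the study's methods call that group wild type. The Villin-Wls cKO tumors were collected 30 days after tamoxifen, and control tumors are described as having had no tamoxifen unless otherwise stated. Wls is the membrane protein that cells need to secrete Wnt ligands. Tumors were macrodissected pieces of colon, and the sources used here do not state how many mice they came from.

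Keratin filaments are obligate heteropolymers of a type I and a type II chain, so that cells normally make the chains in pairs. In the mouse, type I genes lie on chromosome 11 and type II genes on chromosome 15, with Krt18 as the type I gene beside Krt8 on chromosome 15. Single-layered epithelia such as the colon use Krt8 with Krt18, Krt19 and Krt20, and Krt20 belongs to the mature cells of the upper crypt and surface. Stratified epithelia use Krt5 with Krt14 in basal cells and other pairs above them, and a further set builds hair and nail.

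The values were FPKM, sequenced fragments scaled by the authors for transcript length and for the size of the library. FPKM totals per tumor ranged from 1207683 to 1533885, and read depth is unknown. Wls, the deleted gene, ranged from 61.3 to 79.9 FPKM in control tumors and from 2.03 to 11.8 FPKM in Villin-Wls cKO tumors, with tumors 2 and 3 the highest of the latter. The groups also differed in sex markers: Xist, expressed from the inactive X chromosome, was between 439 and 701 FPKM in Villin-Wls cKO tumors and at most 0.420 FPKM in control tumors, while the Y-linked Eif2s3y was at most 0.138 and between 30.4 and 46.6 FPKM. Genotype, tamoxifen and sex therefore cannot be told apart in these comparisons. Villin-Wls cKO tumors 2 and 3 stood apart from the other 8 by stratified squamous genes, and results that rest on them are given with and without them. All 8 colon epithelium markers examined were found in every tumor, the lowest value being 5.33 FPKM for Cdx2.

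Between genotypes, 2 of the 20 keratin entries passed the test, Krt20 and Krt83, and both were higher in Villin-Wls cKO tumors. Of all 16757 genes tested 10.9% passed, 6.12% higher and 4.75% lower, so that the share of keratins was near that of all genes. The test was limma on log2(FPKM + 1), two-sided, with Benjamini-Hochberg adjustment over all genes tested and a threshold of 0.05, differences are Villin-Wls cKO minus control, and p-values rest on the spread between these tumors. The fit treated the tumors as independent, which cannot be checked because the number of mice is not stated. If tumors shared a mouse, the p-values may be too small. Of all calls, 56.3% were higher, but 77.0% after rescaling every tumor to 1 common FPKM sum, which moved the median of all genes to 0.10, and 44.3% after quantile normalization. No entry was lower past the limma threshold, and at an unadjusted p under 0.05 there were 3 lower entries (Krt23, Krt32 and Krt35) and 4 higher ones (Krt20, Krt83, Krt8 and Krt80), beside 11.9% of all genes lower and 13.9% higher. The groups did not overlap for 4 entries, Krt20, Krt83, Krt35 and Krt32, and for 10.1% of all genes tested. The median log2 difference was 0.17 over the 6 simple epithelial entries and 0.64 over the 14 others, beside 0.0073 over all genes. Of the 14 others, 4 (Krt1, Krt5, Krt6b and Krt12) reached the mean of 0.5 FPKM needed for the test only through Villin-Wls cKO tumors 2 and 3, where they were high. The median of the remaining 10 was 0.13 over all tumors and -0.86 without tumors 2 and 3, so that the median of the other keratins rested on those tumors, and the simple entries had 0.14 without them. Tumors 2 and 3 had been set apart by high stratified genes, so leaving them out lowers such entries by selection. The -0.86 is therefore no independent test of lower keratins in the remaining Villin-Wls cKO tumors.

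**Figure D1:**
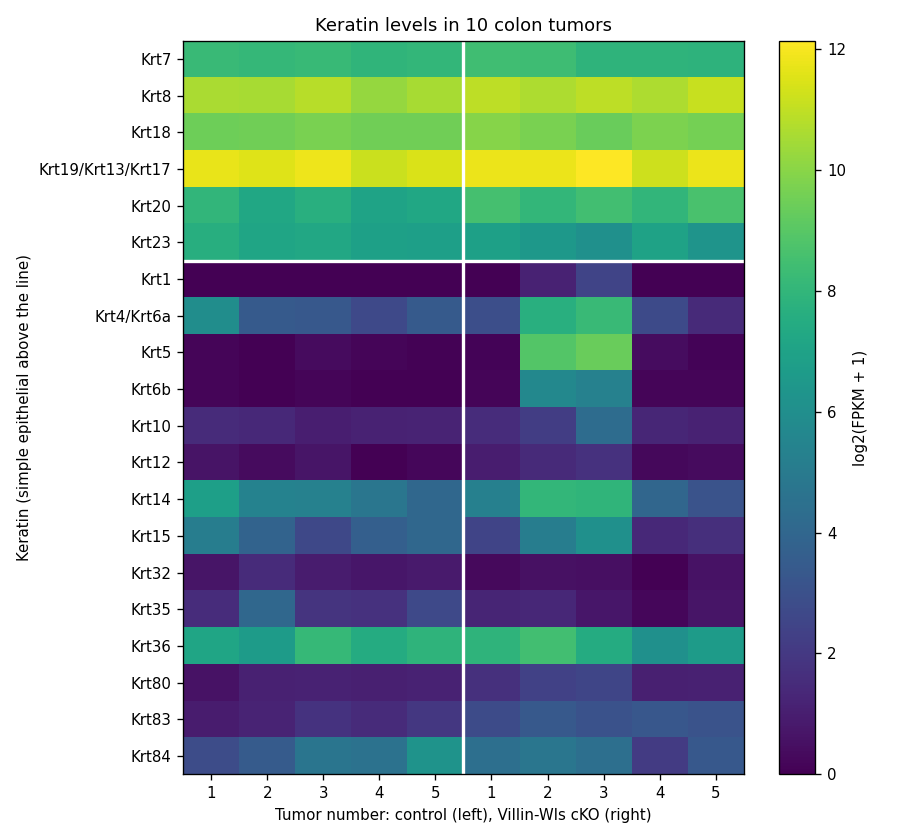
Level of each of the 20 keratin entries (rows) in each tumor (columns), as log2(FPKM + 1) by color, with simple epithelial keratins above the horizontal line and control tumors left of the vertical line. Simple keratins were high in all 10 tumors, and Krt5 and Krt6b were high in Villin-Wls cKO tumors 2 and 3 only.

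The upstream sequences of 4 genes are shown, because Krt20 passed the test, Krt5 separates tumors 2 and 3 from the others, and Krt36 and Krt84 are hair keratins found in every tumor. Each is the RefSeq window on GRCm38.p6 of 250 bases before to 50 bases after the gene start, 5′ to 3′ on the gene's own minus strand: Krt20 at chr11:99438104-99438403, Krt5 at chr15:101712856-101713155, Krt36 at chr11:100105577-100105876 and Krt84 at chr15:101532771-101533070. Capitals mark ATAAAAG, a form of the TATA box.
Krt20: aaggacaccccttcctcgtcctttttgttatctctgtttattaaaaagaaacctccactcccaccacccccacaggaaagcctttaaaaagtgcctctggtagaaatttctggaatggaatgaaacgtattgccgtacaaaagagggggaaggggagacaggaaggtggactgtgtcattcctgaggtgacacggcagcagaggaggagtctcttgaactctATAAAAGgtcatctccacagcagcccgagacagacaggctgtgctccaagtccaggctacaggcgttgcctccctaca
Krt5: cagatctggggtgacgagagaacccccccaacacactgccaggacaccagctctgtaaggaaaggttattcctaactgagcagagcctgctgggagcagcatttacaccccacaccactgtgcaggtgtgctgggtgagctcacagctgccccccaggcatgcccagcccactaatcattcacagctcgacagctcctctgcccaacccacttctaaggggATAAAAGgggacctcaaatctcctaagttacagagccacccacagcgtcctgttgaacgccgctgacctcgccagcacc
Krt36: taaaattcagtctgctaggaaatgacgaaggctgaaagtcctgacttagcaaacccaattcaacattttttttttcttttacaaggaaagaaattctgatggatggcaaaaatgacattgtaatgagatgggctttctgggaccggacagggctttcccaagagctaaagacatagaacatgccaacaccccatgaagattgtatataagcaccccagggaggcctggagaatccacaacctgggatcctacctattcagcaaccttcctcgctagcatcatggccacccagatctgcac
Krt84: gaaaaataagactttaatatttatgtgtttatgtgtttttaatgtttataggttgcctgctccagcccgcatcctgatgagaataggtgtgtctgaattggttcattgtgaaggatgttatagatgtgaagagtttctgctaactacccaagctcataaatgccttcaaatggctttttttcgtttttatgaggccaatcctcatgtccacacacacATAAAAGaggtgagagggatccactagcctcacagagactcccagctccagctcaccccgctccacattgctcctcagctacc
ATAAAAG began 28 bases before the start of Krt20, 29 before that of Krt5 and 33 before that of Krt84, and Krt36 had none on either strand. Other forms of the TATA box were not searched. On the gene strand, ATAAAAG also began 29 bases before the start of Krt13 and only 7 before that of Krt7. Krt8 had none on that strand before its start. Whether any match acts as a TATA box was not tested. Searched on both strands, ATAAAAG was in 6 of the 13 keratin members that the promoter table holds (Krt5, Krt7, Krt8, Krt13, Krt20 and Krt84) and in 5.42% of all 32851 windows of this length. The AP-1 motif TGANTCA, searched the same way, was in Krt13 alone of the 13 and in 7.81% of all windows. CTTTGA, the core letters bound by the Wnt effectors TCF and LEF1, was in Krt32 alone and in 16.0% of all windows. The motif ATAAAAG was chosen after the sequences had been read, and these matches describe letters, not binding.

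Summed over the 20 entries, keratins reached between 4991 and 7348 FPKM in control tumors and between 5568 and 9343 FPKM in Villin-Wls cKO tumors. The simple entries held between 93.8% and 96.7% of that sum in control tumors, between 95.8% and 98.2% in Villin-Wls cKO tumors 1, 4 and 5, and 82.4% and 83.4% in tumors 2 and 3. These shares count as simple the whole entry that Krt19 shares with Krt13 and Krt17, and without that entry in the simple sum the other 5 simple keratins held 44.4% to 48.6% of the keratin sum in control tumors and 35.0% to 55.0% in Villin-Wls cKO tumors. By mean over the 10 tumors, the order was the shared entry of Krt19 (3265 FPKM), Krt8 (1696), Krt18 (785), Krt7 (276), Krt20 (252) and, behind the hair keratin Krt36, Krt23 (120). Krt7 and Krt20 overlapped in range, and so did Krt20 and Krt23.

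Krt8, the main type II keratin of simple epithelia, was at 1543, 1522, 1845, 1211 and 1486 FPKM in control tumors 1 to 5 and at 1958, 1629, 1936, 1591 and 2242 FPKM in Villin-Wls cKO tumors 1 to 5. The groups overlapped, as control tumor 3 lay above Villin-Wls cKO tumors 2 and 4. Krt8 differed by 0.30 ± 0.13 in log2 units (SE is the standard error, limma adjusted p = 0.189), short of the threshold. Krt18, its type I partner, was at 712, 718, 842, 724 and 737 FPKM in control tumors and at 971, 836, 668, 854 and 785 FPKM in Villin-Wls cKO tumors. Krt18 was thus both highest and lowest in Villin-Wls cKO tumors, in tumors 1 and 3, and its log2 difference was 0.13 (standard error 0.10, limma adjusted p = 0.466). The ratio of Krt8 to Krt18, which FPKM allows because it is per length, lay between 1.67 and 2.19 in control tumors and between 1.86 and 2.90 in Villin-Wls cKO tumors. The highest ratios, 2.90 and 2.86, were those of Villin-Wls cKO tumors 3 and 5.

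Krt19, a type I keratin of simple and ductal epithelia, cannot be separated from Krt13, a keratin of mucosal stratified epithelia, and Krt17, a keratin induced in injured skin. The 3 genes span positions 100117327 to 100261029 of chromosome 11 in GENCODE M21, and of the 4 keratin genes between them, Krt14 and Krt15 had values of their own. The shared entry was at 3381, 3004, 3649, 2317 and 2781 FPKM in control tumors and at 3542, 3498, 4525, 2400 and 3553 FPKM in Villin-Wls cKO tumors. The groups overlapped over most of their range, and the log2 difference was 0.20 (standard error 0.18, limma adjusted p = 0.543). It was the largest entry in each tumor, with between 43.1% and 50.2% of the keratin sum.

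Krt7, a type II keratin of ductal epithelia, was at 297, 275, 290, 245 and 263 FPKM in control tumors and at 342, 334, 240, 239 and 232 FPKM in Villin-Wls cKO tumors. Villin-Wls cKO tumors 1 and 2 lay above every control tumor and tumors 3, 4 and 5 below every one, so that the means were almost the same, 273.9 ± 20.8 and 277 ± 55.3 FPKM (SD, n = 5 each). In log2 units Krt7 differed by -0.00088 ± 0.13 (SE, limma adjusted p = 0.998).

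Krt20, the type I keratin of differentiated surface colonocytes and goblet cells, rose in Villin-Wls cKO tumors. It was at 250.2, 152, 199, 131 and 148 FPKM in control tumors and at 372, 259, 354, 252 and 400.5 FPKM in Villin-Wls cKO tumors. Every Villin-Wls cKO tumor lay above every control tumor, though the lowest of them, tumor 4, was only just above control tumor 1. The mean went from 176 ± 48.7 to 327.5 ± 67.9 FPKM (SD, n = 5 each), 1.86 times the control mean. In log2 units this was 0.91 ± 0.20 (SE, limma adjusted p = 0.0156). Without Villin-Wls cKO tumors 2 and 3 it was 0.97 (limma adjusted p = 0.0464), and Krt20 passed in each of 21 alternative fits. Relative to Krt8, Krt20 lay between 0.0995 and 0.162 in control tumors and between 0.158 and 0.190 in Villin-Wls cKO tumors, so that this ratio overlapped between the groups through control tumor 1. The summed level of the 8 colon epithelium markers ranged from 2651 to 3748 FPKM in control tumors and from 3349 to 5821 FPKM in Villin-Wls cKO tumors. All 8 had positive log2 differences with a median of 0.46, 5 of them at an unadjusted p under 0.05, and the tetraspanin Tspan8 passed the test (0.60, limma adjusted p = 0.0307). Krt20 and these markers thus differed in the same direction, and the part of epithelial content in the Krt20 difference was not tested. In whole tumor pieces a change in the number of cells of a type and a change of RNA per cell cannot be told apart.

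Krt23, a type I keratin that lies next to Krt20 among the keratins of the table on chromosome 11, showed the opposite direction without passing the test. It was at 193, 138, 154, 117 and 114 FPKM in control tumors and at 120, 87.8, 66.6, 128 and 77.4 FPKM in Villin-Wls cKO tumors. Villin-Wls cKO tumors 2, 3 and 5 lay below every control tumor, and tumors 1 and 4 within the control range. The log2 difference was -0.59 (standard error 0.20, limma adjusted p = 0.0952). The ratio of Krt20 to Krt23 was between 1.10 and 1.30 in control tumors and between 1.97 and 5.32 in Villin-Wls cKO tumors.

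**Figure D2:**
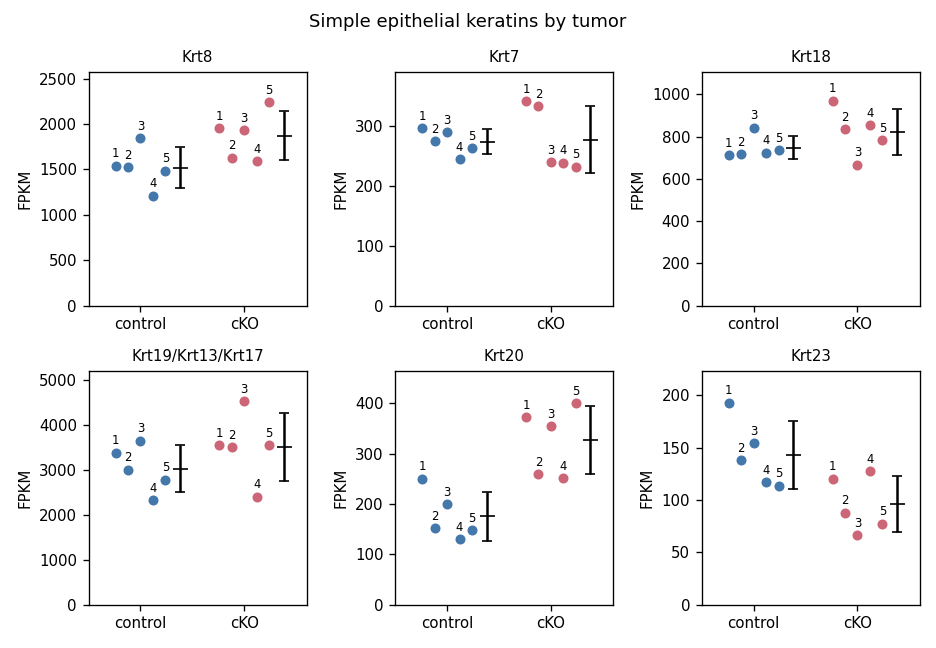
FPKM of the 6 simple epithelial entries in each tumor (points, labelled with the tumor number) with the mean and SD of 5 tumors beside them. The Krt20 points of Villin-Wls cKO tumors (252 to 400.5) lie above all control points (131 to 250.2), and the other 5 entries overlap.

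Among keratins of stratified epithelia, high values were concentrated in Villin-Wls cKO tumors 2 and 3. These tumors held the 2 highest values of 8 of the 14 other entries (Krt1, Krt4 with Krt6a, Krt5, Krt6b, Krt10, Krt12, Krt14 and Krt80), as they did for 6.67% of all genes tested. For Krt1, Krt5, Krt6b and Krt12 this was nearly fixed by the filter, and of the 10 entries that pass it without those tumors it held for 4. None of these entries passed the test between genotypes. The pattern was known from earlier results of these data and is given as a description.

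Krt5, the type II keratin of basal cells, was at 0.137, 0, 0.287, 0.118 and 0.0674 FPKM in control tumors and at 0.0993, 469.5, 669, 0.315 and 0.0703 FPKM in Villin-Wls cKO tumors. It was high in Villin-Wls cKO tumors 2 and 3 and near 0 in the other 8, with control tumor 2 listed at 0. Between genotypes Krt5 differed by 3.62 ± 1.92 in log2 units (SE, limma adjusted p = 0.271), with 2.34 without tumor 2 and 2.22 without tumor 3, and without both it was too low to test. Krt14, its type I partner, was not confined to that pair of tumors. It was at 113, 41.1, 39.9, 26.0 and 15.7 FPKM in control tumors and at 38.6, 262, 243, 15.2 and 7.76 FPKM in Villin-Wls cKO tumors. Krt14 was therefore present in tumors where Krt5 was below 1 FPKM, and the ratio of Krt5 to Krt14 was 1.79 and 2.75 in Villin-Wls cKO tumors 2 and 3 and at most 0.0207 elsewhere. The log2 difference of Krt14 was 0.40 (standard error 0.97, limma adjusted p = 0.842) and -1.13 without Villin-Wls cKO tumors 2 and 3. Those tumors had been set apart by high stratified genes, so the latter value is no independent test of a lower Krt14.

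Krt15, a type I keratin of basal and progenitor cells, was at 34.6, 13.4, 5.27, 11.6 and 15.5 FPKM in control tumors and at 4.61, 34.4, 67.7, 1.601 and 2.15 FPKM in Villin-Wls cKO tumors. Villin-Wls cKO tumors 1, 4 and 5 lay below every control tumor, tumor 3 lay above every one and tumor 2 just below the highest. The log2 difference was -0.52 over all tumors (standard error 0.91, limma adjusted p = 0.78), and -2.03 with an adjusted p of 0.0487 in limma when tumors 2 and 3 were left out. Those tumors had been set apart by high stratified genes, so the fit without them is no independent test of a lower Krt15. The mean FPKM was higher in Villin-Wls cKO tumors, 22.1 ± 28.9 against 16.1 ± 11.1 (SD, n = 5 each), so that mean FPKM and mean log2 value differed in sign.

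Krt4, which pairs with Krt13 in mucosal suprabasal cells, and Krt6a, which is induced in wounds, shared an entry. The genes span positions 101689910 to 101924735 of chromosome 15, and of the 9 keratin genes between them Krt5 and Krt1 had values of their own. The entry was at 60.9, 9.91, 9.15, 5.33 and 9.85 FPKM in control tumors and at 6.47, 200.1, 295, 5.57 and 1.69 FPKM in Villin-Wls cKO tumors. After Villin-Wls cKO tumors 2 and 3 the highest was control tumor 1, which was also the highest control tumor for Krt14 and Krt15. The log2 difference was 0.81 (standard error 1.32, limma adjusted p = 0.759).

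Krt6b, a close relative of Krt6a, was at 0.135, 0, 0.136, 0.0289 and 0.0321 FPKM in control tumors and at 0.132, 50.3, 39.7, 0.113 and 0.105 FPKM in Villin-Wls cKO tumors. Like Krt5 it was high in tumors 2 and 3 alone, and its log2 difference of 2.21 (standard error 1.15, limma adjusted p = 0.263) was 1.37 without tumor 2 and 1.45 without tumor 3, and could not be tested without both. Krt10, the type I keratin of differentiating epidermis, was at 1.82, 1.66, 1.01, 1.22 and 1.29 FPKM in control tumors and at 1.94, 3.69, 18.5, 1.48 and 1.25 FPKM in Villin-Wls cKO tumors. Villin-Wls cKO tumor 3 was far above the rest, followed by tumor 2. The Krt10 log2 difference was 0.86 (standard error 0.51, limma adjusted p = 0.331), 0.31 without tumor 3 and 0.093 without tumors 2 and 3. Krt1, the epidermal partner of Krt10, reached only 4.65 and 1.25 FPKM in tumors 3 and 2 and at most 0.0295 FPKM elsewhere. The epidermal pair was thus low beside Krt5 and Krt14 in the same tumors. Krt12, the type I keratin of cornea, was at most 2.36 FPKM and Krt80 at most 4.89 FPKM.

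**Figure D3:**
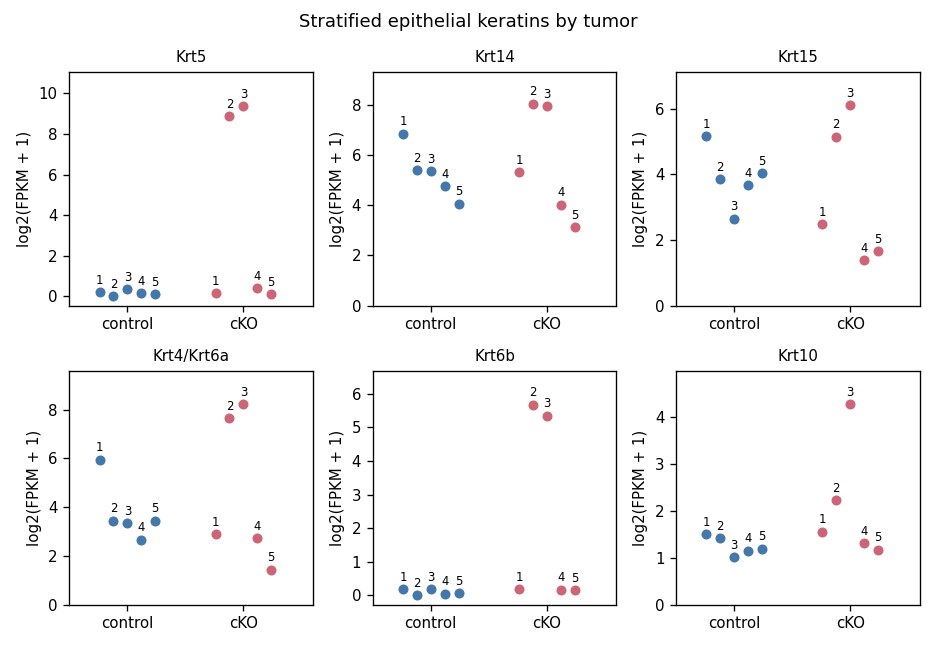
log2(FPKM + 1) of 6 stratified epithelial entries in each tumor (points, labelled with the tumor number). Krt5 and Krt6b are near 0 in all tumors but Villin-Wls cKO tumors 2 and 3, whereas Krt14 and Krt15 are present in every tumor, and control tumor 1 is the highest control for Krt14, Krt15 and the entry of Krt4 and Krt6a.

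Stratified squamous genes that are not keratins mostly had their highest values in Villin-Wls cKO tumors 2 and 3. Those tumors had been set apart by such genes, so the following count is a description and no independent support for the keratin pattern. Of 12 such markers, 11 were in the table and 10 had their 2 highest values in Villin-Wls cKO tumors 2 and 3. The same held for 6.67% of all genes tested. For Trp63, Calml3 and Cnfn it was nearly fixed by the filter, which they pass only through those tumors. Lypd3 lay near the filter limit without them. The summed level of the 11 markers ranged from 82.1 to 126 FPKM in control tumors and from 109 to 142 FPKM in Villin-Wls cKO tumors 1, 4 and 5. In tumors 2 and 3 it ranged from 389 to 529 FPKM. Trp63, the transcription factor of basal stratified cells, was at 16.28 and 16.96 FPKM in tumors 2 and 3 and at most 0.0649 FPKM elsewhere, and Trp63, Calml3 and Cnfn were each listed at 0 in some of the other tumors. Control tumor 1, with Krt14 at 113 FPKM, had Trp63 listed at 0 and Krt5 at 0.137 FPKM. Of this list only Serpinb5 passed the test between genotypes (log2 difference 0.55, limma adjusted p = 0.0242), and it was the marker whose 2 highest values were not those of tumors 2 and 3. The part of squamous tissue in the keratin values was not tested. Of 7 markers of hair follicle and cornified skin, 3 were in the table and 0 passed in limma, with 1, Lor, at an unadjusted p under 0.05. Lor, a cornified envelope protein, had a log2 difference of -0.52 (limma adjusted p = 0.168), with 1.04 and 0.933 FPKM in Villin-Wls cKO tumors 2 and 3 and up to 2.36 FPKM in control tumors. Tchh, a hair follicle protein, was at 1.08 and 1.31 FPKM in those tumors and at most 0.674 FPKM elsewhere. S100a3, a calcium-binding protein of the hair cuticle, was at 132 and 114 FPKM in Villin-Wls cKO tumors 2 and 3 and at most 70.4 FPKM elsewhere. Of 5 mesothelial markers only Msln was in the table, at 5.46 to 24.3 FPKM, without passing.

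Keratins named for hair and nail were found in tumors of both genotypes. Krt36, a type I hair keratin also known from the papillae of the tongue, was sixth among the 20 entries by mean level, at 188 FPKM. It was at 142, 101, 279.8, 174 and 238 FPKM in control tumors and at 237.4, 358, 179, 67.6 and 99.8 FPKM in Villin-Wls cKO tumors. The groups overlapped throughout, with a log2 difference of -0.14 (standard error 0.44, limma adjusted p = 0.887). Krt84, a type II hair keratin likewise known from the tongue, was at 6.17, 10.05, 25.2, 23.04 and 73.4 FPKM in control tumors and at 20.7, 25.9, 20.7, 3.33 and 9.03 FPKM in Villin-Wls cKO tumors. Control tumor 5 stood apart, and the log2 difference was -0.55 (standard error 0.67, limma adjusted p = 0.664), -0.088 without control tumor 5 and -1.07 without Villin-Wls cKO tumors 2 and 3. The 6 tumors with the highest Krt36 (Villin-Wls cKO tumors 1, 2 and 3 and control tumors 3, 4 and 5) were also the 6 with the highest Krt84, and Villin-Wls cKO tumor 4 was the lowest for both. This order did not follow Krt5, since control tumors 3, 4 and 5 held at most 0.287 FPKM of it.

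Krt83, a type II hair keratin, was low but rose in Villin-Wls cKO tumors. It was at 0.919, 1.30, 2.48, 1.86 and 2.92 FPKM in control tumors and at 5.87, 9.53, 7.34, 8.81 and 7.68 FPKM in Villin-Wls cKO tumors, with no overlap. The log2 difference was 1.64 (standard error 0.20, limma adjusted p = 0.00072) and 1.58 without Villin-Wls cKO tumors 2 and 3. The name 5430421N21Rik carried the same 10 values, and RefSeq lists that name as a synonym of both Krt83 and the neighboring Krt86, so that the entry cannot be assigned to Krt83 alone.

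Krt35, a type I hair keratin, was at 1.92, 15.5, 2.61, 2.32 and 5.47 FPKM in control tumors and at 1.37, 1.59, 0.647, 0.167 and 0.620 FPKM in Villin-Wls cKO tumors. Every Villin-Wls cKO tumor lay below every control tumor, and control tumor 2 stood apart. Krt35 differed by -1.52 ± 0.45 in log2 units (SE, limma adjusted p = 0.0562), and it passed without control tumor 1 (-1.73, limma adjusted p = 0.0476) and not without control tumor 2 (-1.11, limma adjusted p = 0.0532). Krt32, named here because its groups did not overlap, was at most 1.81 FPKM in any tumor and had a log2 difference of -0.55 (standard error 0.18, limma adjusted p = 0.0785). The direction among hair keratins was therefore mixed, with Krt83 higher past the threshold and the other 4 entries at negative differences that did not pass.

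**Figure D4:**
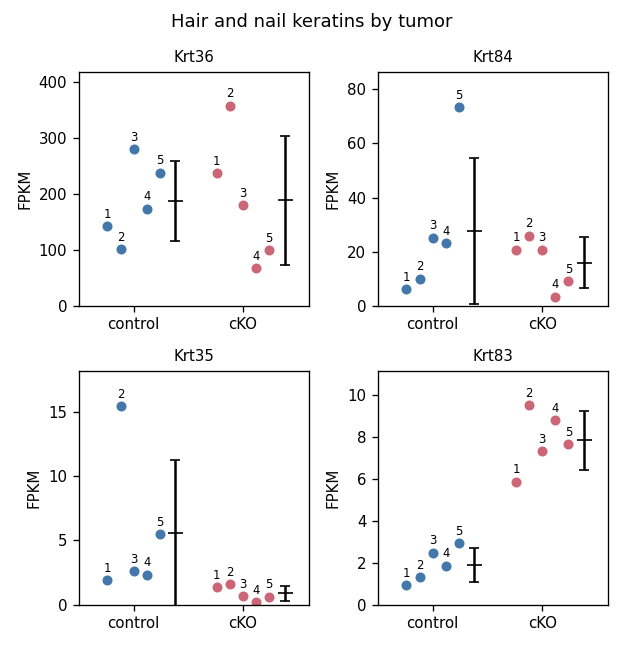
FPKM of 4 hair and nail entries in each tumor (points, labelled with the tumor number) with the mean and SD of 5 tumors beside them. Krt83 is higher in all 5 Villin-Wls cKO tumors than in any control tumor, Krt35 is lower in all 5 (the lower SD bar of its controls runs below 0 and is not drawn), and Krt36 and Krt84 overlap.

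**Figure D5:**
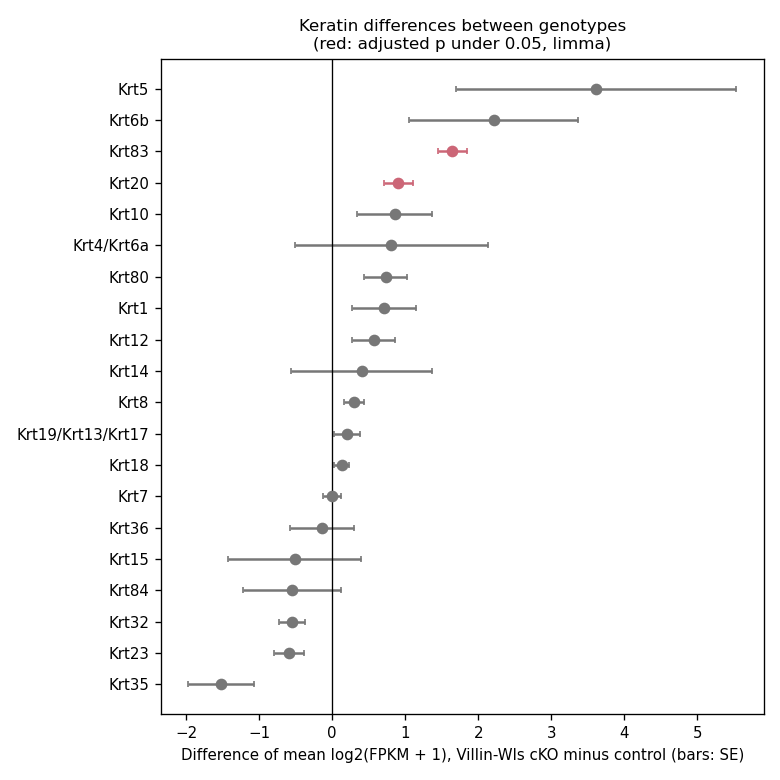
Difference of mean log2(FPKM + 1), Villin-Wls cKO minus control, for the 20 entries (points) with the limma standard error (bars). Krt20 (0.91) and Krt83 (1.64) are the 2 entries past the threshold, and the largest estimate, that of Krt5 (3.62), has a standard error of 1.92.

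Genes that work with keratins were examined in lists chosen by function. Their counts stand beside all genes tested, of which 10.9% passed in limma, with 6.12% higher. Of all genes tested, 6.67% had their 2 highest values in Villin-Wls cKO tumors 2 and 3. Of 16 genes whose proteins tie keratin filaments to junctions or help to build them, 15 were tested and 0 passed in limma, with 2 at an unadjusted p under 0.05 and a median log2 difference of 0.091. Of these 15, 8 had their 2 highest values in Villin-Wls cKO tumors 2 and 3, where the summed level of all 15 was 693 to 769 FPKM, beside 483 to 621 FPKM in control tumors and 519 to 630 FPKM in the other Villin-Wls cKO tumors. The margins varied widely. Trim29, a keratin-binding protein, was at 37.6 and 43.9 FPKM in tumors 2 and 3 and at most 12.9 FPKM elsewhere. Flii, another gene of this list, was at 58.2 and 59.6 FPKM in tumors 2 and 3 and at up to 58.1 FPKM elsewhere. Desmoplakin (Dsp), which anchors filaments at desmosomes, was at 31.1 ± 5.14 FPKM in control and 32.4 ± 9.38 FPKM in Villin-Wls cKO tumors (SD, n = 5 each). Of 16 other intermediate filament genes, 8 were tested and 0 passed in limma, with 1 at an unadjusted p under 0.05, and vimentin (Vim), the filament of mesenchymal cells, was at 416 ± 130.0 and 326.5 ± 38.1 FPKM (SD, n = 5 each). Of 16 genes for enzymes and partners that act on or bind keratins, all were tested and 3 were higher past the threshold. Among them were Tgm2, a protein-crosslinking transglutaminase (log2 difference 2.16, standard error 0.23, limma adjusted p = 0.000323), and Sfn, a 14-3-3 protein of epithelia (0.87, standard error 0.22, limma adjusted p = 0.0312). Sfn was at 194 and 212 FPKM in Villin-Wls cKO tumors 2 and 3. It was at 132, 128 and 124 FPKM in Villin-Wls cKO tumors 1, 4 and 5 and at most 119.5 FPKM in control tumors. Its difference without tumors 2 and 3 is not given here. Of the 16 genes, 2 had their 2 highest values in those tumors. The median of that list was -0.044.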

How the data were processed

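RNA-seq libraries of 5 control and 5 Villin-Wls cKO tumors were made with a stranded mRNA kit. Per the labels and the study's methods, FastQC was used for read quality, TopHat2 2.1.1 for mapping (GRCm38.p5), and Cufflinks 2.2.1 and Cuffdiff for quantification, all at default parameters. The values deposited by the authors are FPKM per gene name and tumor. The annotation release and the use of strand in quantification are not given in the sources used here. All 10 columns were assigned to tumors. Among 257 genes below 0.5 FPKM in control tumors 1 and 2, at most 2 had the same ratio within 0.01%, so read numbers were not recovered, depth is unknown, and precision rests on the spread between tumors, which may be partly technical.

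Groups were compared on log2(FPKM + 1), with a pseudocount of 1, by limma 3.58.1 (R 4.3.3) over genes with a mean of at least 0.5 FPKM, with an eBayes variance trend, no covariate and an adjusted p under 0.05. The method was tested on simulated data. Changes of low genes are understated by the pseudocount. Summaries and figures used Python 3.11.15, numpy 2.4.6, pandas 2.3.3 and matplotlib 3.10.9. Values of every tumor are given for the simple keratins, entries past the threshold and entries with at least 10 FPKM in some tumor. Members, roles and lists were chosen with earlier results of these data known. Positions are from GENCODE M21 and sequences from RefSeq, both on GRCm38. Alternatives were a pseudocount of 0.1, no filter or a mean of at least 5 FPKM, 3 other scalings, eBayes without trend or robust, identical rows once, a replicate block, and tumors left out. The values of 1 gene past the threshold in a list are not reported here.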

Additional observations from a re-analysis of the deposited data

Results flagged for a closer look

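In 6 of 32 groups of 5 tumors examined, 2 for each of 16 keratin entries, the extreme tumor lay apart by Dixon's criterion. In each of the 6 it was the highest tumor. The criterion was applied to FPKM and not to log2 values. Its chance rate of about 1 in 20 groups holds for normally distributed values, and whether FPKM meet that was not tested. The 6 groups are therefore listed without a comparison with chance. Control tumor 1 was the highest control for the entry of Krt4 and Krt6a, at 60.9 FPKM, and for Krt14, at 113 FPKM. Control tumor 3 was high for Krt18, at 842 FPKM. Control tumor 2 was high for Krt35, at 15.5 FPKM, and control tumor 5 for Krt84, at 73.4 FPKM. Villin-Wls cKO tumor 3 was high for Krt10, at 18.5 FPKM.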

How the results depend on the processing

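Over 16 keratin entries and their alternatives, 331 fits of single entries were made, of which 310 kept the direction and the side of the threshold. Krt20 passed in all 21, with log2 differences between 0.74 and 1.04, and Krt83 in all 20 that tested it, between 1.51 and 2.08. The count of entries past the threshold, 2, became 1 with a mean of at least 5 FPKM, which removes Krt83, and the count of higher entries, 2, likewise became 1. The count of lower entries, 0, became 1 with a pseudocount of 0.1, with quantile normalization, with a replicate block and without control tumor 1 (Krt35 in each case). It also became 1 without Villin-Wls cKO tumors 2 and 3 (Krt15), but those tumors had been set apart by high stratified genes. With single tumors left out the count of lower entries ranged from 0 to 1. Same-numbered tumors deviated from their group means with correlations of 0.064, -0.087, 0.063, 0.10 and 0.16. The labels name no pairing, and whether such tumors share more than a number cannot be told from these values. With the replicate block the adjusted p of Krt35 was 0.0385, no other keratin call changed, and 1627 genes passed over all genes.

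Directions turned in differences that had not passed. Krt7 became 0.10 with a common FPKM sum, and Krt18 became -0.11 with quantile normalization. With single tumors left out, Krt7 ranged from -0.082 to 0.057, the entry of Krt4 and Krt6a from -0.095 (without Villin-Wls cKO tumor 3) to 1.6, Krt14 from -0.18 (without Villin-Wls cKO tumor 2) to 1.04 and Krt36 from -0.43 to 0.17 (without Villin-Wls cKO tumor 4). Krt15 kept its sign, from -1.20 (without Villin-Wls cKO tumor 3) to -0.022 (without Villin-Wls cKO tumor 4). Krt14 was also negative without Villin-Wls cKO tumor 3, at -0.16. Without Villin-Wls cKO tumors 2 and 3 together, the entry of Krt4 and Krt6a became -1.42 and Krt14 -1.13, and Krt5 and Krt6b no longer had the mean level for a test. Since those tumors had been set apart by high stratified genes, the negative values are no independent result. The cause was not tested.

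Over all genes, 1822 passed, beside 1101 without Villin-Wls cKO tumors 2 and 3 and from 1229 to 1986 with single tumors left out. The tumors of each group differ from the other group in genotype, sex markers and, as the study describes its controls, tamoxifen, and read depth is unknown, so that low values such as those of Krt83, Krt35 and Krt32 have no counting error attached.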
